A study of Mus musculus with 2 samples.

Results

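The genes described here encode the intraflagellar transport (IFT) machinery and other parts of the primary cilium. They were chosen by symbol alone. Included were all genes of the numbered Ift and Bbs series, together with Dync2h1, Dync2li1, Kif3a, Kif3b, Kif7, Arl13b, Ptch1, Smo, Pkd1, Pkd2 and Cc2d2a. This gave 33 genes of the 43346 gene rows, and all 33 were measured in both libraries. By role they were 3 subunits of the IFT-A complex, 11 of IFT-B, 6 of the BBSome, 2 chaperonin-like Bbs proteins, 4 motor proteins, 3 Hedgehog pathway proteins and 4 proteins of the ciliary membrane or transition zone.

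Total RNA had been sequenced from 2 hearts of mouse embryos of the B6NCrl strain at embryonic day 14.5, 1 library per heart. The hearts form 1 group, without treatment or mutation named in the labels. Replicate 1 was collected on 15 July and replicate 2 on 17 July, and RNA longer than 200 nt was kept, with 10 ng of RNA per library. No contrast between conditions exists, so the values describe levels in the whole heart and the difference between 2 embryos, for which no p-value can be given.

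The primary cilium is a single, non-motile projection of the cell surface, built on a centriole that serves as its basal body. IFT trains, made of IFT-A and IFT-B, are pulled towards the tip by kinesin-2 and return with dynein-2. The BBSome carries membrane proteins out of the cilium. Hedgehog signals are received at this organelle in vertebrates, and in the embryonic heart it is known from endocardium, mesenchyme and muscle. Defects of ciliary genes in mice lead to malformed septa and reversed heart position.

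The labels give the sex of each sample as a pool of male and female, although each was a single heart. The Y-linked genes Ddx3y, Eif2s3y, Kdm5d and Uty had 2310, 1845, 965 and 1133 counts in replicate 1 and 0 in replicate 2, where a count of 0 allows up to 3 counts. The X-inactivation RNA Xist was at 0.04 TPM in the first library and 37.7 TPM in the second. TPM is a level per transcript length, scaled to the same total in each library. Sex-linked expression, embryo and collection day thus differ together between the libraries and cannot be told apart in any difference given here. The depth was 2.85e+07 estimated counts in replicate 1 and 2.90e+07 in replicate 2, and 1 count on an effective length of 1 kb was worth 0.0478 and 0.0475 TPM. All 7 cardiomyocyte markers, all 6 endothelial, all 6 cushion mesenchyme and all 5 epicardial markers reached 1 TPM in both libraries. Of the 4 smooth muscle markers 3 did, the exception being Myh11 (0.43 and 1.39 TPM). Haemoglobin genes took 2.33% of gene counts in replicate 1 and 1.31% in replicate 2.

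Promoter windows are shown because IFT proteins act in shared complexes, and the promoters of their genes can be compared by eye. RefSeq promoters (GRCm38.p6, 250 bases before the start) matched 29 of the 33 genes. Ift80, Ift81, Ift122 and Dync2li1 had no promoter entry and were not searched. The CCAAT box, a common promoter element, was found on either strand in 15 of the 29 (51.7%), against 35.2% of the promoters of detected protein-coding genes and 33.8% of all 32851 promoters in the table. Of the IFT genes searched, 8 had it, and Ift20, Ift43 and Ift46 did not. For each, 30 bases around the copy nearest the start are given 5′ to 3′ on the strand of the gene. Capitals mark the box, which reads CCAAT on one strand and ATTGG on the other.
Ift22, chr5:136908120-136908149, plus strand: gccgtggaaactgaccagCCAATcagagca
Ift27, chr15:78174117-78174146, minus strand: cttttgagagcaaCCAATcaggagacaata
Ift52, chr2:163017251-163017280, plus strand: gacctaccatcttATTGGtctttaatagca
Ift57, chr16:49699145-49699174, plus strand: gaatccagctttgATTGGtgaaaatttaga
Ift74, chr4:94614440-94614469, plus strand: ggcgcagcgcaggCCAATcacgaggagcgt
Ift88, chr14:57423943-57423972, plus strand: gaccaccataaacATTGGgccagcctcgag
Ift140, chr17:25016044-25016073, plus strand: cgtgctggctgtgATTGGctgagactatgt
Ift172, chr5:31291224-31291253, minus strand: atgcagccacaggATTGGtcgcggagagaa

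RFX factors are transcription factors that control ciliary genes in animals, and their X-box pairs inverted half-sites. The half-site GTTGCCA, searched on both strands, was in 1 of the 29 promoters (3.45%), against 3.08% of detected protein-coding promoters and 3.66% of all. The promoter was that of Ift27, where the half-site (capitals) lies just before the RefSeq start and inside the first exon of GENCODE M21.
Ift27, chr15:78174082-78174111, minus strand: ggagaaggcgggttgatgatgGTTGCCAgg
The GLI site GACCACCCA, bound by the Hedgehog factors, was in 0 of the 29, against 0.162% of detected protein-coding promoters and 0.225% of all. The NRF1 core GCATGCGC was in 1 of the 29 (3.45%), that of Kif3a, against 4.31% of detected protein-coding promoters and 2.26% of all. A half-site followed by AT would also hold a CCAAT box, which is not so in Ift27. A match describes the letters of the window only.

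Almost the whole set was expressed in the heart. Of the 33 genes, 32 reached 1 TPM in both libraries, against 56.8% of the 21474 protein-coding genes. The exception was Bbs1. The 33 genes had a median of 8.62 ± 0.382 TPM (SD, n = 2), from 8.35 and 8.89 TPM in replicates 1 and 2. Most lay in the lower part of the expressed range, since only 10 exceeded the median of the detected protein-coding genes, at 15.8 and 16.3 TPM in replicates 1 and 2. Together the 33 genes held 21864 counts in replicate 1 and 23087 in replicate 2, or 0.0796% and 0.0827% of gene counts. In whole-heart RNA a low level can come from few cells with the transcript or from little of it per cell, and these cannot be told apart.

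**Figure D1:**
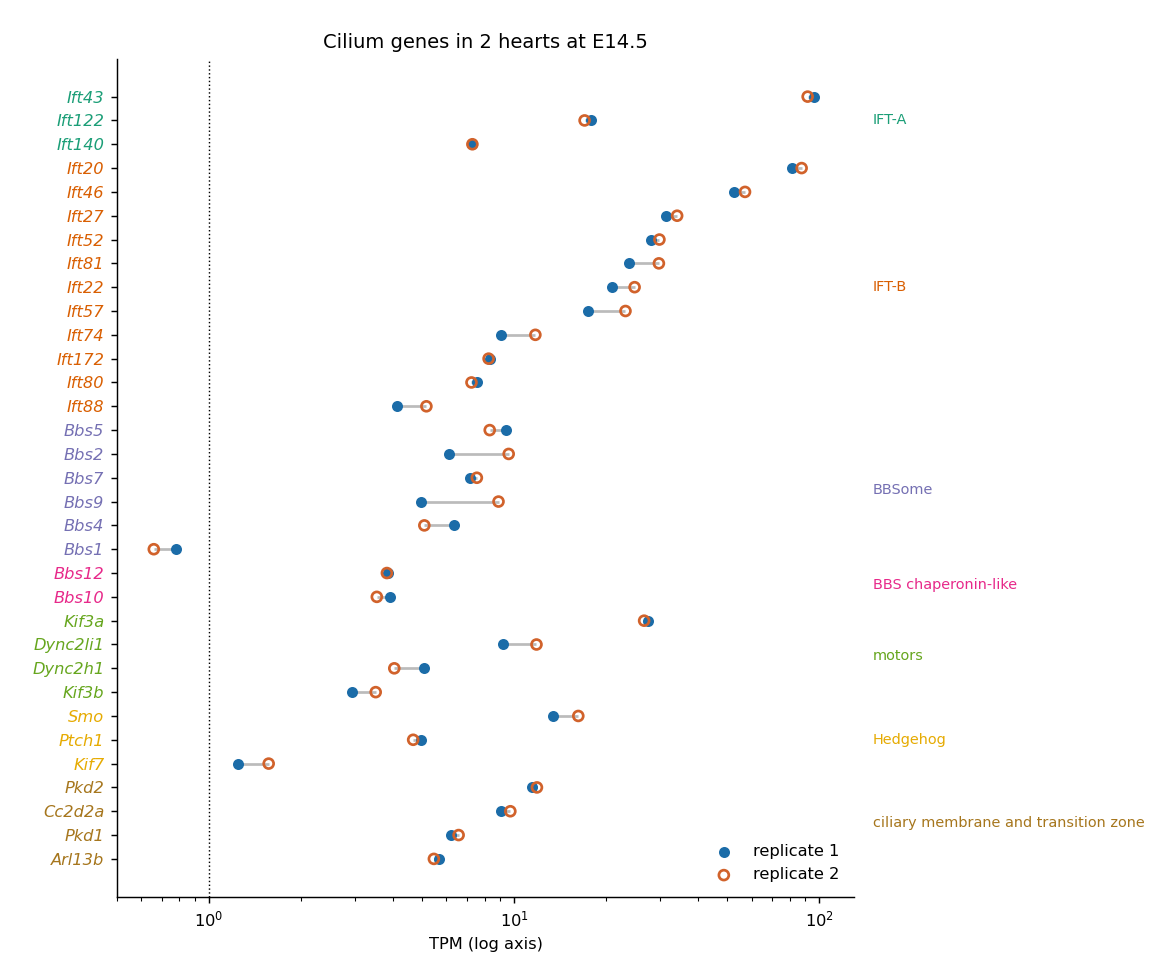
Level of each of the 33 cilium genes in TPM (log axis) in the heart of replicate 1 (filled points) and replicate 2 (open points), ordered by role and level; the grey line joins the libraries and the dotted line marks 1 TPM. Levels run from Bbs1 below 1 TPM to Ift43 above 90 TPM, and the pairs of points lie close together except for Bbs2 and Bbs9.

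Among IFT-A subunits the levels were far apart. Ift43, a small peripheral subunit (chromosome 12, 86082541 to 86162459, plus strand), had 96.4 and 91.6 TPM in replicates 1 and 2 and was the highest of all 33 genes. Ift122 had 17.9 and 17.0 TPM, and Ift140 had 7.28 and 7.30 TPM. The last 2 are large core subunits, and the order of the 3 was the same in both hearts, with gaps much larger than the difference between libraries. The rest of IFT-A carries other symbols, namely Wdr35 at 10.6 ± 0.849 TPM, Ttc21b at 5.12 ± 0.622 TPM and Wdr19 at 4.69 ± 0.283 TPM. With them all 6 IFT-A subunits were detected, with medians of 8.65 and 9.26 TPM.

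IFT-B spanned 18.2-fold from its lowest to its highest measured member. Ift20, which also works at the Golgi in sorting proteins for the cilium (chromosome 11, 78536361 to 78541737, plus strand), led with 81.5 and 87.5 TPM. Ift46, a core subunit that binds Ift52, had 52.4 and 57.1 TPM. Ift27, a small GTPase that helps BBSome cargo leave the cilium, had 31.6 and 34.2 TPM. These 3 small proteins kept their order in both libraries.

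In the middle of the IFT-B range lay Ift52, a core scaffold subunit, with 28.0 and 29.9 TPM. Ift81 and Ift74 bind tubulin as a pair. Ift81 had 23.8 and 29.8 TPM, and Ift74 had 9.04 and 11.7 TPM. Ift22, a GTPase-like subunit attached to that pair, had 20.9 and 24.8 TPM, and Ift57, a peripheral subunit, had 17.4 and 23.2 TPM. The order of Ift52, Ift81, Ift22 and Ift57 was the same in each library. Their ranges over both libraries overlapped from each gene to the next, so these ranks were not well separated. Ift74 lay below all of them in both libraries.

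The lowest IFT-B members were Ift172, the largest subunit (8.35 and 8.25 TPM), the peripheral subunit Ift80 (7.58 and 7.25 TPM) and Ift88 (4.13 and 5.16 TPM). Ift88 (chromosome 14, 57424062 to 57517936, plus strand) is the subunit whose mutation gives the Oak Ridge polycystic kidney mouse. Of the 7 IFT-B genes under other symbols, Hspb11 was highest at 28.9 ± 3.88 TPM and Cluap1 next at 11.7 ± 1.87 TPM. Ttc30a2, 1 of 3 closely related copies among which reads can be divided, was 1.72-fold higher in replicate 2 (interval 1.14 to 2.58), with 39.7 and 71.1 counts. Of all 18 IFT-B genes, 17 were detected, with medians of 9.76 and 12.4 TPM in replicates 1 and 2.

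The BBSome members other than Bbs1 lay close to each other, below 10 TPM in both libraries. Bbs2, Bbs7 and Bbs9 form the core of the complex. Bbs5, which binds phosphoinositides, had 9.44 and 8.32 TPM. Bbs7 had 7.19 and 7.55 TPM, and Bbs4 had 6.34 and 5.08 TPM. These 3 kept their order in both hearts. Bbs2 had 6.10 and 9.60 TPM and Bbs9 had 4.97 and 8.89 TPM, so their places among the others differed between the libraries.

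Bbs1, the subunit that binds the GTPase Arl6, stood apart at 0.78 and 0.66 TPM, with 90 and 76 counts over a single annotated transcript of 5581 nt (chromosome 19, 4886878 to 4906628, minus strand). It was the lowest of the 33 genes in both hearts. Bbs4, the next BBSome gene by mean TPM, had 324 and 261 counts over 2542 nt. The subunits Bbip1 (15.3 ± 1.41 TPM) and Ttc8 (11.2 ± 1.15 TPM) were the highest of the complete BBSome, whose 8 genes had medians of 6.77 and 8.61 TPM.

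The chaperonin-like proteins help assemble the BBSome. Bbs12 had 3.85 and 3.83 TPM and Bbs10 had 3.91 and 3.55 TPM, so neither was separated from the other. Their partner Mkks was at 47.2 ± 1.72 TPM and the general chaperonin genes Cct3 and Cct2 at 307 ± 2.78 and 118 ± 3.43 TPM. All 11 BBSome partners on the list were detected.

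**Figure D2:**
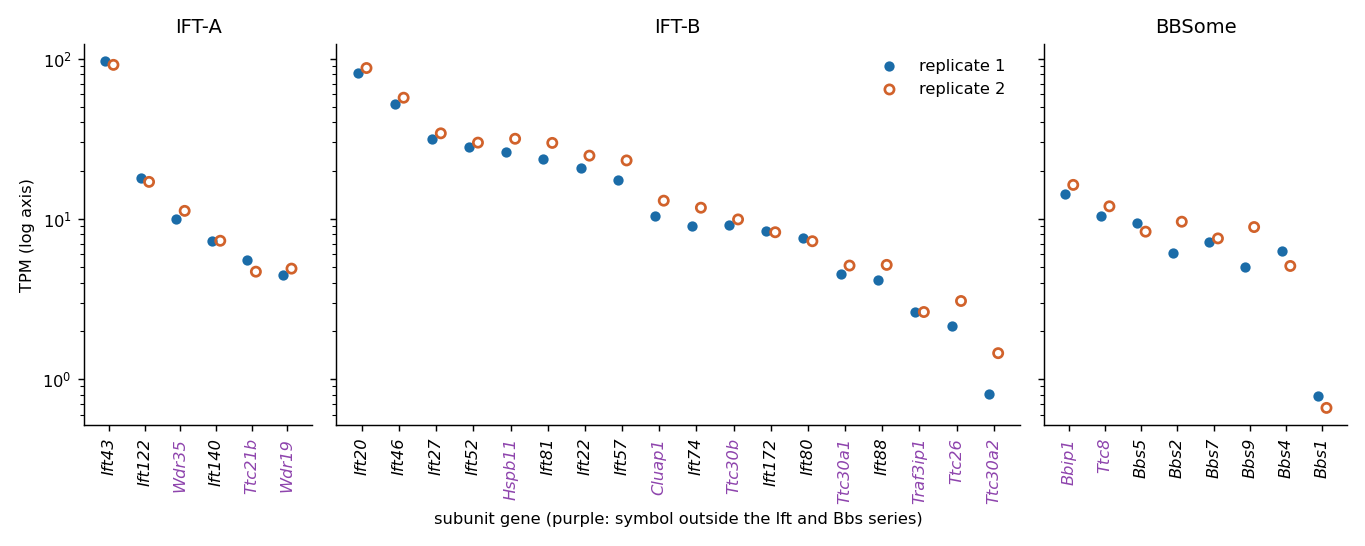
TPM (log axis) of every gene of IFT-A (6), IFT-B (18) and the BBSome (8) in both libraries, ordered by mean level within each complex, with black names for Ift and Bbs symbols and purple names for other symbols. Ift43 and Ift20 stand at the top of their complexes, and Ttc30a2 and Bbs1 lie at the bottom of theirs, below or near 1 TPM.

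The motors were unequal within each complex. Kif3a and Kif3b are the paired motor subunits of heterotrimeric kinesin-2. Kif3a had 27.5 and 26.7 TPM, and Kif3b had 2.95 and 3.52 TPM. Kif3a was thus 8.41-fold higher, with a log2 ratio of 3.07 ± 0.21 (SD, n = 2). In estimated counts with no correction for length the log2 ratio was 1.59. For the leading transcript alone, Kif3a-203, it was 1.47. That leaves out the coding Kif3a-201, level with it at 8.99 and 8.77 TPM, and all other Kif3a transcripts. The third kinesin-2 subunit, Kifap3, was at 19.7 ± 0.438 TPM. The homodimeric motor gene Kif17 was at 0.13 and 0.45 TPM.

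Dynein-2 returns trains to the base. Its light intermediate chain Dync2li1 had 9.17 and 11.8 TPM. Its heavy chain Dync2h1 (chromosome 9, 6928503 to 7184446, minus strand) had 5.06 and 4.05 TPM. The log2 ratio of heavy over light intermediate chain was -1.20 ± 0.49, or 2.30-fold in favour of Dync2li1, and it differed between the hearts (-0.86 and -1.55). In estimated counts without length correction the ratio was 1.37, the other way round, as the heavy chain transcript is far longer. Light chains shared with cytoplasmic dynein were much higher, with Dynll1 at 982 ± 44.1 TPM, Dynlrb1 at 389 ± 10.3 TPM and Dynlt1a at 71.9 and 76.2 TPM. Of the 12 listed partners, 10 were detected.

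Hedgehog receptors and transducers were present, while the ligand genes Shh and Ihh and the target genes Gli1 and Hhip were below 1 TPM. Smo, the transducer that enters the cilium, had 13.5 and 16.2 TPM. Ptch1, the receptor that restrains Smo, had 4.95 and 4.67 TPM, so Smo was 3.07-fold higher (log2 ratio 1.62 ± 0.25). In estimated counts without length correction this log2 ratio was 0.72. Kif7, the kinesin that organises the tip for GLI factors, was at 1.41 ± 0.226 TPM, from 118 and 148 counts.

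Of 20 further Hedgehog pathway genes, 14 reached 1 TPM in both libraries. Prkaca, the catalytic subunit of protein kinase A, had 124 and 163 TPM. Spop was at 65.6 ± 4.02 TPM, and the coreceptor gene Gas1 had 32.9 and 39.5 TPM. The ligand genes were at 0 and 0.04 TPM for Shh, 0.04 and 0.10 TPM for Ihh and 0.91 and 1.53 TPM for Dhh.

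In this list 15 of the 16 genes whose mean count reached 50 were higher in replicate 2 (49.5% of all genes of such counts were), with a median log2 difference of 0.23, against -0.00 over all genes, and 15 or 16 were higher under each of the 4 scalings tried. The exception was the transporter gene Disp1. Dhh was 1.63-fold higher in replicate 2 (interval 1.11 to 2.44) and Gpr161, a ciliary receptor that restrains the pathway, 1.76-fold (1.29 to 2.45), with 62 and 114 counts. The coreceptor genes Cdon (1.34-fold), Boc (1.21-fold) and Gas1 (1.16-fold) were also higher there, each with a counting interval above equality. The same held for 17.1% of all genes whose mean count reached 50, and these intervals do not cover variation between embryos. Chosen after their values were seen, the target genes Gli1 and Hhip had 4 and 2 counts in replicate 1 and 24 and 44.1 in replicate 2, ratios of 5.26 (counting interval 1.98 to 22.9) and 17.3 (5.53 to 180.4). Ptch1, also a target, went the other way at 1.09-fold higher in replicate 1, with an interval that includes equality.

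Some cell type markers also differed between the libraries, in both directions. The epicardial Upk3b (1253 and 1962 counts) was 1.51-fold and the smooth muscle Myh11 (59 and 191 counts) 3.10-fold higher in replicate 2. Each was the only 1 of its list, of 5 and 4 genes, at least 1.5-fold apart. No cardiomyocyte, endothelial or cushion mesenchyme marker was. The epithelial gene Epcam, of a list of 7 multiciliated and airway markers of which none reached 1 TPM in both libraries, had 3 and 54 counts, and the list summed to 0.40 TPM in replicate 1 and 1.92 TPM in replicate 2. Sftpc was at 0 in both. The 5 neural markers summed to 4.18 and 13.2 TPM, and 3 of them were at least 1.5-fold higher in replicate 2. All 6 erythroid markers were at least 1.5-fold higher in replicate 1. The part of these cells in the Hedgehog values was not tested.

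At the ciliary membrane, the polycystins form a receptor and channel complex known for its role in kidney disease and in vessel and septum formation in mice. Pkd2, the channel, had 11.4 and 11.9 TPM. Pkd1, the receptor-like partner (chromosome 17, 24549834 to 24596508, plus strand), had 6.20 and 6.58 TPM. Their log2 ratio was -0.87 ± 0.02, so Pkd2 was 1.82-fold higher per length. In estimated counts Pkd1 was the higher one (log2 ratio 0.62), over a transcript of 14170 nt. Of 11 polycystin relatives and partners 6 were detected, led by Tsc2 (19.2 ± 0.714 TPM), Glis2 (14.9 ± 2.06 TPM) and Tsc1 (10.6 ± 1.08 TPM).

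Cc2d2a, a transition zone protein that gates entry to the cilium, had 9.06 and 9.72 TPM. Arl13b, the ciliary GTPase used as a marker of the organelle, had 5.69 and 5.46 TPM. By TPM, replicate 2 was at 1.07-fold of replicate 1 for Cc2d2a and at 0.96-fold for Arl13b. Of 20 further transition zone genes, 19 reached 1 TPM in both libraries, led by Tmem107 (26.4 ± 0.445 TPM), Iqcb1 (20.0 ± 2.56 TPM) and B9d2 (18.6 ± 0.955 TPM). The exception was Nphp4, at 1.15 and 0.88 TPM.

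Genes that share the organelle without being members gave a like picture. All 16 measured basal body genes were detected, led by Odf2 (36.2 ± 0.290 TPM), Cep89 (27.4 ± 1.27 TPM) and Plk4 (25.2 ± 1.90 TPM). Of 10 ciliary GTPase and lipid carrier genes 9 were, led by Pde6d (51.2 ± 2.30 TPM), Arl3 (48.4 ± 9.62 TPM) and Rab34 (47.0 ± 2.16 TPM). All 8 cilium disassembly genes, which also act in mitosis, were detected, led by Aurka (65.5 ± 5.24 TPM), Nde1 (57.4 ± 1.29 TPM) and Plk1 (46.7 ± 3.62 TPM). Motile cilium genes differed, as only 4 of 20 reached 1 TPM in both libraries. Foxj1, the master factor of motile cilia, was at 0.06 and 0.09 TPM, and the dynein arm gene Dnah5 was at 0 in both, with 0 counts. The 4 were Rfx3 (5.64 ± 0.0212 TPM), Rfx2 (2.99 ± 0.127 TPM), Ccdc40 (1.61 ± 0.113 TPM) and Dnaic1 (1.35 ± 0.0778 TPM). Of 6 RFX factors 5 were detected, led by Rfx7 (8.34 ± 0.0141 TPM), Rfx5 (5.77 ± 0.636 TPM) and Rfx3.

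Between the complexes, the median of the 11 IFT-B members was 20.9 and 24.8 TPM, and that of the 6 BBSome members was 6.22 and 7.94 TPM. The log2 ratio of BBSome over IFT-B was -1.70 ± 0.07, so that IFT-B lay 3.24-fold higher among the genes with Ift and Bbs symbols. Over all 8 BBSome and 18 IFT-B genes, an alternative added after seeing the data, it was -0.53 ± 0.0036, so that IFT-B lay 1.44-fold higher. IFT-B over IFT-A was 0.38 ± 0.23 and rests on 3 IFT-A members, and over all subunits it was 0.30 ± 0.17.

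Level and transcript length were related among the members. Spearman's rho between mean TPM and mean length was -0.70 over the 33 genes (Pearson's r of the log2 values -0.68), against -0.32 over the 12202 detected protein-coding genes. Between estimated count and length it was 0.00. The points of these correlations are genes, not replicates, and TPM contains the length by construction. The leading small subunits Ift43, Ift20 and Ift46 have leading transcripts of 775, 1141 and 1317 nt, while Bbs1, Kif3b and Kif7 have transcripts of 5581, 5635 and 4577 nt.

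On scaled estimated counts, 0 of the 33 genes were at least 1.5-fold apart, against 3.29% of the 13218 genes whose mean count reached 50. A share of 3.29% is about 1 gene of 33, so this count is near the background, and by TPM 2 members (Bbs2 and Bbs9) were at least 1.5-fold apart. The median log2 difference, replicate 2 over replicate 1, was 0.03 for the members and -0.00 for all of those genes, and its SD over genes was 0.21 and 0.38. Of the 33, 19 were higher in replicate 2 and 14 in replicate 1, where 49.5% of all of those genes were higher in replicate 2. These counts were 27 and 6 with spike-in scaling, which moved the median of all genes by 0.11.

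Counting error alone left 9 of the 33 genes apart from equality by their exact 95% interval, which does not cover variation between embryos. The same held for 35.8% of all genes. Among the 6 higher in replicate 2, Ift88 had the largest log2 difference, 0.49 (0.21 to 0.77), with 181 and 264 counts. Bbs9 followed with 0.41 (0.21 to 0.62), and Ift74 with 0.35 (0.15 to 0.55). The others were Dync2li1 at 0.32, Smo at 0.22 and Ift57 at 0.22. Of the 3 higher in replicate 1, Bbs4 was 1.29-fold and Dync2h1 1.27-fold higher, and Ift43 1.09-fold.

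Each difference was also set against the central 95% of the differences of the 500 genes nearest in count. Only Dync2h1 lay outside, with a log2 difference of -0.35 against a range from -0.34 to 0.39, and 5.34% of all genes lay outside their ranges. Its counts were 765 and 625. One gene of 33 is near that background share. Bbs4, Ift88 and Bbs9 lay inside the ranges of genes of like count.

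**Figure D3:**
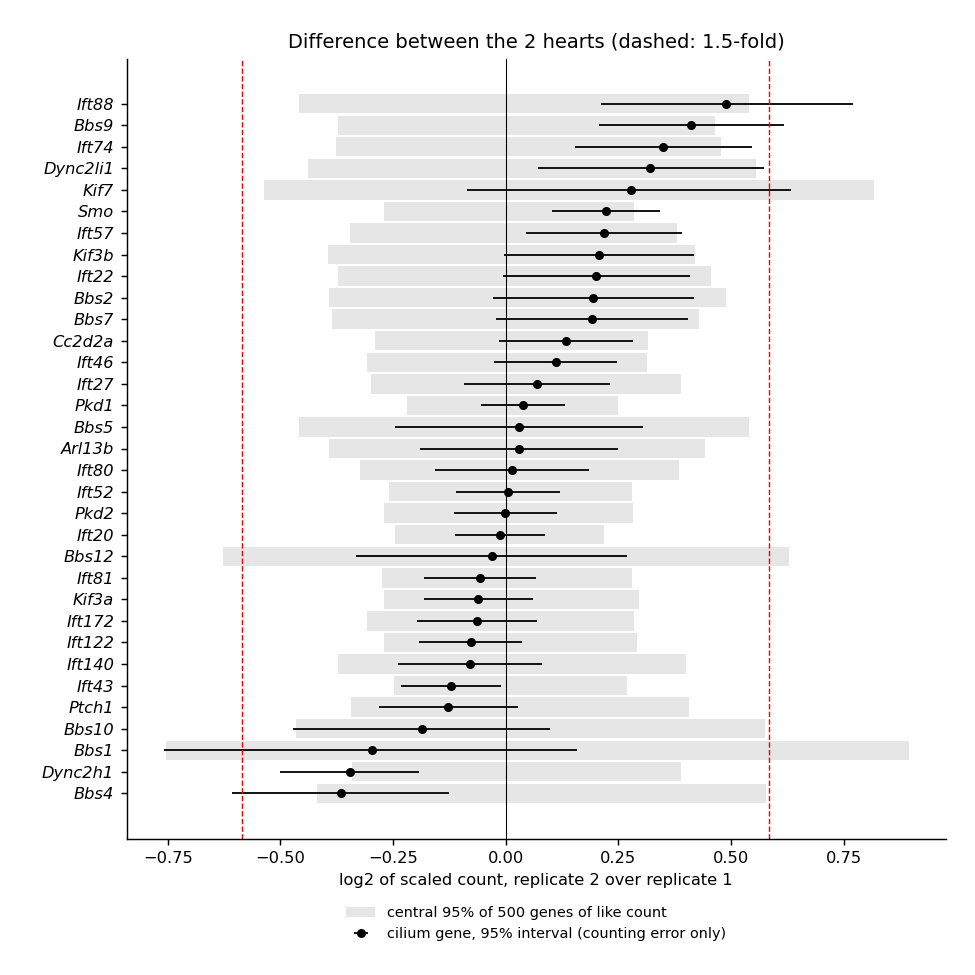
Log2 of scaled counts of replicate 2 over replicate 1 for each of the 33 genes (points) with exact 95% intervals for counting error (lines), over the central 95% of 500 genes of like count (grey bars); dashed lines mark 1.5-fold. No point passes 1.5-fold, and Dync2h1 alone lies just outside its grey bar.

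Differences in TPM were larger than differences in counts for a few genes. Bbs9 was 1.79-fold higher in replicate 2 by TPM against 1.33-fold by counts. Bbs2 was 1.57-fold higher by TPM and 1.14-fold by counts, with 308 and 366 counts, and its count interval (0.98 to 1.34) includes equality. Ift81 was higher by TPM with a log2 difference of 0.33, while its counts of 1055 and 1053 were 1.04-fold higher in replicate 1 once scaled. In each case the mean length of the transcripts assigned to the gene was shorter in replicate 2, by 0.37, 0.39 and 0.32 on the log2 scale for Bbs9, Bbs2 and Ift81.

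Of the 22 members with at least 2 annotated transcripts, 5 differed in mean length by at least 0.2 on the log2 scale, against 7.44% of 9102 protein-coding genes with 2 or more transcripts and 7.41% of the 5449 of them within the members' range of mean count (133 to 1631). The other 2 were Bbs5 and Ift88, whose mean lengths were longer in replicate 2. Their log2 differences by TPM were -0.18 for Bbs5 and 0.32 for Ift88, against 0.03 and 0.49 by counts.

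**Figure D4:**
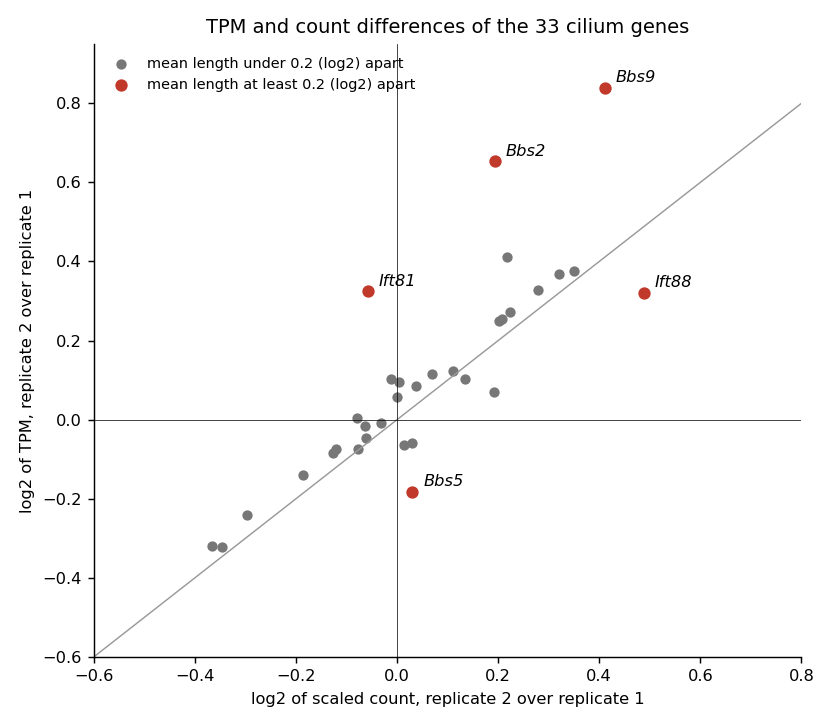
Log2 of TPM (vertical) against log2 of scaled counts (horizontal), both replicate 2 over replicate 1, for the 33 genes; the line marks equality and red points are genes whose mean transcript length differed by at least 0.2 (log2). Most points lie near the line, with Bbs9, Bbs2 and Ift81 above it and Bbs5 and Ift88 below it.

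The transcripts behind these shifts were short and held few counts. Bbs2-202, a retained-intron transcript of 491 nt, had 1.87 and 24.2 counts and 0.23 and 2.93 TPM. The coding transcript Bbs2-201 (2947 nt) had 5.01 and 5.54 TPM, so the TPM difference of the gene lay on the short one. The posterior SD of the Bbs2-202 count, the uncertainty of the assignment, was 3.97 and 6.50.

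In Bbs9 the 3 short transcripts Bbs9-206, Bbs9-207 and Bbs9-203 had 0.06, 0 and 0 TPM in replicate 1 and 1.11, 1.08 and 0.50 TPM in replicate 2. Their counts in replicate 2 were 12.6, 10.1 and 16.1, with posterior SDs of 5.33, 5.78 and 14.6. The leading coding transcript, Bbs9-201 (3382 nt), had 2.15 and 2.16 TPM. The other long coding forms were higher in replicate 2, with 96.9 and 141 counts on Bbs9-211 and 92.7 and 136 on Bbs9-210. For Ift81, the 593-nt Ift81-206 and the 450-nt Ift81-204 were at 0 TPM in replicate 1 and at 4.30 and 2.34 TPM in replicate 2, while the full coding form Ift81-201 had 14.8 and 13.3 TPM.

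In Bbs5 and Ift88 some short forms were lower in replicate 2 and others were not. The retained-intron transcripts Bbs5-207 and Bbs5-206 had 1.05 and 1.04 TPM in replicate 1 and 0 in replicate 2, from 7.14 and 8.93 counts. The short Bbs5-204 had 0.40 and 0.48 TPM, and Bbs5-201 itself had 6.63 and 7.75 TPM. The 562-nt Ift88-203, of the nonsense-mediated decay class, had 1.51 and 0.77 TPM, while the 667-nt Ift88-202 had 0 and 0.49 TPM. The coding Ift88-201 had 2.51 and 3.67 TPM.

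Which transcript led a gene was mostly the same in both hearts. It was so for 20 of the 22 members by TPM, against 90.5% of 8997 protein-coding genes, and for 22 of 22 by estimated counts. The exceptions were Ift122 and Kif3a. In Ift122 a processed transcript of 2519 nt, Ift122-204, had 7.39 and 4.57 TPM, and the coding Ift122-201 had 5.19 and 5.68 TPM. In Kif3a the coding Kif3a-203 (8.87 and 9.00 TPM) and Kif3a-201 (8.99 and 8.77 TPM) were level.

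Short models also weighed on single-gene levels within both libraries. Dync2h1-202, of 2892 nt, held 49.1% and 43.5% of the TPM of the heavy chain gene but 19.0% and 16.5% of its counts. The full Dync2h1-204 (14264 nt) had 1.88 and 1.52 TPM. Ift46-209, of 229 nt, had 14.7 and 16.4 TPM from 40.0 and 44.9 counts, beside 24.1 and 27.6 TPM on Ift46-202. The nearly equal Bbs12-201 and Bbs12-202 had 101 and 188 against 84.0 and 0 counts in the 2 libraries, with posterior SDs of 33.3 and 16.8.

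The share of a gene's TPM on protein-coding transcripts had a median of 85.7% and 84.9% over the 22 members, against 92.6% and 92.4% over 8997 genes. By the mean of both libraries it was lowest for Ift122 (52.3% and 63.2%), Ift140 (59.1% and 63.9%) and Ift88 (60.8% and 71.1%). By estimated counts the coding shares were higher, at 62.8% and 73.7%, 74.1% and 82.2%, and 86.6% and 87.3%. Transcripts with no type in GENCODE M21 did not count as coding, among them a Cc2d2a transcript with 34.6% and 20.5% of the TPM of its gene. The largest difference between the hearts was that of Bbs2, with 82.1% and 57.7% by TPM, against 96.9% and 90.7% by estimated counts. In Ift140 the processed transcript Ift140-207 had 2.81 and 1.81 TPM. Summed over all member transcripts, 88.6% and 89.7% of TPM lay on coding forms, against 88.8% and 89.1% over all detected protein-coding genes, so the summed shares were close. Retained introns held 5.58% and 5.33%, against 5.84% and 5.28%.

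**Figure D5:**
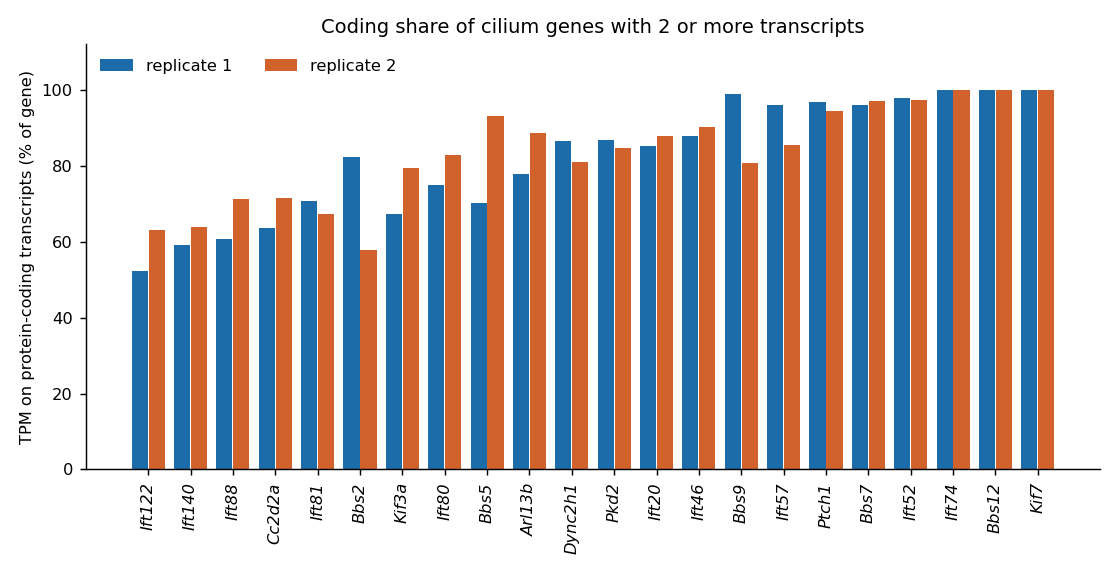
Share of each gene's TPM on protein-coding transcripts (percent, axis from 0) in replicate 1 (blue) and replicate 2 (orange) for the 22 members with 2 or more transcripts, ordered by the mean. Ift122 and Ift140 are lowest by the mean, and Bbs2 and Bbs5 show the widest gaps between the hearts, in opposite directions.

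Several members lie close to other genes. The starts of 8 of the 33 were within 1000 bases of a start on the other strand, against 23.5% of 12202 detected protein-coding genes. The partners and their levels were Mbd4 beside Ift122 (6.20 ± 0.453 TPM), Cramp1l beside Ift140 (4.62 ± 0.643 TPM), Tnfaip1 beside Ift20 (60.6 ± 0.332 TPM), Arcn1 beside Ift46 (96.6 ± 2.99 TPM) and Smc4 beside Ift80 (115 ± 0.375 TPM). Dcun1d5 beside Dync2h1 was at 64.3 ± 8.03 TPM, Cetn4 beside Bbs12 at 0.46 ± 0.0990 TPM and A430108G06Rik beside Kif3a at 0.30 ± 0.269 TPM. The partner of Ift80 and that of Dync2h1 were thus over 10-fold higher than the member.

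Exons on the opposite strand overlap for some members, and whether the counting used strand is not given in the sources used here. Pkd1 shares 693 exonic bases with Tsc2 (19.2 ± 0.714 TPM). Kif7 shares 877 with 9330171B17Rik (0.125 ± 0.0212 TPM) and 51 with Ticrr (2.61 ± 0.212 TPM). Bbs4 shares 194 with Adpgk (17.6 ± 0.0354 TPM), Ift57 225 with Gm15518 (0.255 ± 0.0212 TPM), Ift88 67 with Ift88os (0.085 ± 0.0212 TPM) and Bbs12 32 with Cetn4. Without strand, reads in the shared bases cannot be told apart. The estimates themselves divided reads with another gene for 3 members, Kif7, Pkd1 and Ift57, whose gene counts had a posterior SD above 0. Their counts and those of 9330171B17Rik, Tsc2 and Gm15518, which overlap them on the other strand, complete each other to whole numbers in both libraries. Pkd1, for example, had 1826.59 and 1947.97 counts and Tsc2 had 2443.41 and 2330.03. Reads were thus divided between opposite strands in these 3 pairs.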

How the data were processed

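Total RNA from 2 hearts was measured as 1 gene table and 1 transcript table per library. The assembly (mm10) and annotation (GENCODE M4) are those of the labels and of the listing deposited with each sample. The aligner, the quantifier, their versions and any use of strand were not given in the sources used here. Expected counts are the authors' estimated counts of each gene or transcript, without scaling by depth. The deposited TPM values were scaled to 1e+06 over all rows, and the deposited FPKM values served as an alternative only. Transcript shares in percent are those of the deposited tables or were computed from TPM. The posterior SD of a count in the authors' tables was used as a score of assignment uncertainty.

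Names, positions and transcript types came from GENCODE M21 (GRCm38), matched on the identifier without version, and 42462 gene rows had a symbol. Expected counts, rounded to whole numbers, were scaled with TMM (edgeR 4.0.16, R 4.3.3). Log2 differences used a prior of 0.5, with exact 95% Clopper-Pearson intervals. These intervals hold counting error alone. They treat reads as independent molecules, which reads are not, so they can be too narrow. The difference step was tested on simulated counts. Alternatives were other scalings (among them DESeq2 1.42.0 size factors), units, count minimums, thresholds and single libraries. All members are named. From each further list, the 3 highest genes and those at least 1.5-fold apart (mean count of at least 50) are named, with up to 5 per list. This rule was not applied to the lists of cell type markers. Other genes named (Kif17, Kifap3, Gli1, Hhip, the ligand and coreceptor genes, Disp1, Nphp4, Foxj1, Dnah5, Epcam, Sftpc, Upk3b, Myh11 and remaining subunits) were chosen after their values were seen. Members, lists and rules were chosen with earlier results of these data known. Talpid3 of the basal body list had no matching row.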

Additional observations from a re-analysis of the deposited data

How the results depend on the processing

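Of 67 alternatives to the reported values, 45 left direction and size within the limits used, 19 moved the value and 3 reversed it. With estimated counts and no length correction the log2 ratios became 1.37 for Dync2h1 over Dync2li1, 0.62 for Pkd1 over Pkd2 and -0.97 for IFT-B over IFT-A. All 3 were reversed, so their direction rests on the length correction. The same setting gave 1.59 for Kif3a over Kif3b, 0.72 for Smo over Ptch1 and -1.0 for BBSome over IFT-B, which kept their direction. Taking the leading transcript only, the ratios were 1.47 (Kif3a over Kif3b), -2.32 (Dync2h1 over Dync2li1), -0.64 (Pkd1 over Pkd2), 1.26 (IFT-B over IFT-A) and -1.48 (BBSome over IFT-B). With posterior mean TPM the last was -1.53, and over all subunits, a choice made after seeing the data, it was -0.53. The median member level was 6.29 in FPKM, 9.17 in posterior mean TPM and 9.30 in TPM rescaled over gene rows. The number of members at least 1.5-fold apart was 1 with spike-in scaling (Ift88), 2 from TPM ratios (Bbs2 and Bbs9) and 5 with the lower fold limit tried. Their median log2 difference was 0.14 with spike-in scaling, 0.059 with total counts and 0.084 from TPM ratios.

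With either library left out, the number of detected members stayed at 32 and the median level ranged from 8.35 to 8.89 TPM. The log2 ratios ranged from 2.92 to 3.22 (Kif3a over Kif3b), from -1.55 to -0.86 (Dync2h1 over Dync2li1), from -0.88 to -0.85 (Pkd1 over Pkd2), from 1.44 to 1.80 (Smo over Ptch1), from 0.22 to 0.54 (IFT-B over IFT-A) and from -1.75 to -1.65 (BBSome over IFT-B). A difference between the libraries has no such check. No paired analysis was possible because there is 1 group. Depth limits Bbs1, Kif7 and the short transcripts most, since they rest on the fewest counts.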
